A study of Mus musculus with 24 samples.

Results

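Accessible chromatin of the full-thickness wound epidermis at day 7 was set beside that of unwounded epidermis at day 0. The peaks of these 2 deposited lists alone were merged, and each merged region was classed as held by the wound list alone, by the unwounded list alone or by both, with at least 1 bp of overlap. This gave 45524 regions on the mm10 build, against 63188 when the peaks of all 8 lists of the series are merged. The full-thickness wound list alone held 14833 regions, the unwounded list alone held 8370, and both held 22321.

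ATAC-seq, in which a transposase cuts and tags open DNA, was run on cells sorted from mouse skin. The unwounded group held 4 samples of epidermal stem cells at day 0 from Krt19-CreER/R26-YFP mice. The wounded group held 3 samples from Sox9-CreER/R26-YFP mice at day 7 after full-thickness wounding, labelled as wound-responsive progeny of epidermal stem cells. All mice were of a CD1 x C57BL/6J cross, and neither their age nor the sort gates are given in the labels used here. Both groups carried a YFP reporter that the tamoxifen-inducible Cre switches on. Krt19 and Sox9, whose promoters drive the Cre, are both best known in skin as genes of hair follicle stem cells, while the sorted cells are labelled as epidermal. Genotype, wounding and time after the start of the experiment change together here and cannot be told apart. With 1 list for each group, the spread between replicates is unknown and the groups cannot be tested against each other. Intervals are exact 95% Clopper-Pearson intervals, which cover counting error only.

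When skin is cut through its full depth, keratinocytes at the edge lose part of their hold on the basement membrane, crawl over the wound bed and divide behind the moving front. This epithelium is known for stress keratins such as keratin 6, for integrins and proteases that serve migration, and for AP-1 and Stat3, transcription factors that respond to injury. Open regions mark promoters and distal elements that could bind such factors, but the presence of a region near a gene does not show that it acts on that gene.

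Promoter sequences of a few genes are shown as examples and do not stand for the classes. The 250 bases before the start site are given 5′ to 3′ for 4 genes whose promoter was in the wound list alone and holds the AP-1 motif TGANTCA, in which N is any base, with that motif in capitals. The motif reads the same on both strands. They encode a collagenase (Mmp13), the urokinase receptor (Plaur), a cornified envelope precursor (Sprr1b) and involucrin (Ivl), and were chosen after their values were seen. The motif was in 7.17% of all promoters of the wound list alone, 5.25% of those of the unwounded list alone and 6.99% of all promoters. By regions near the gene, Ivl had 1 in the wound list alone, 1 in the unwounded list alone and 1 shared. Krt5, which encodes the basal keratin partner of keratin 14, is shown as a promoter of the wound list alone without the motif, and Bmp4 and Syt1 as promoters of the unwounded list alone without it. Sequences and strands come from RefSeq on GRCm38.p6, the assembly of mm10.
Mmp13, chr9:7272264-7272513, plus strand: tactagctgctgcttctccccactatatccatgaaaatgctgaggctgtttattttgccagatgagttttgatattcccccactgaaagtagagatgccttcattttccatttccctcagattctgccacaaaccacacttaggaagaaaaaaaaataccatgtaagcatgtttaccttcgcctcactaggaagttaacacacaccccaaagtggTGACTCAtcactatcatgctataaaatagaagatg
Plaur, chr7:24462233-24462482, plus strand: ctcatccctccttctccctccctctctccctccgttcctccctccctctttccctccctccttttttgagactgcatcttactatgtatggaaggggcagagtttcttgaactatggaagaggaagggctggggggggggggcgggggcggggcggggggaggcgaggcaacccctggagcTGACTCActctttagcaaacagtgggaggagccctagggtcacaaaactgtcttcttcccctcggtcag
Sprr1b, chr3:92438780-92439029, minus strand: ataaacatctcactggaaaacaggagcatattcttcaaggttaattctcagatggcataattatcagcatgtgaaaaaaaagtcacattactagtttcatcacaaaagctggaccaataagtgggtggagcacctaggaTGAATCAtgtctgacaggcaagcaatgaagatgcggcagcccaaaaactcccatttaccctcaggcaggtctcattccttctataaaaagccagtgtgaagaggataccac
Ivl, chr3:92573736-92573985, minus strand: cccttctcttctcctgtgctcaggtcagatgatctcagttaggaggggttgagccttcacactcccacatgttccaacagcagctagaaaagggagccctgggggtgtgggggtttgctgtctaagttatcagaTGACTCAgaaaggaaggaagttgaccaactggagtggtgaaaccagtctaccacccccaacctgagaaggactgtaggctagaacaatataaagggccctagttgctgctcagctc
Krt5, chr15:101712906-101713155, minus strand: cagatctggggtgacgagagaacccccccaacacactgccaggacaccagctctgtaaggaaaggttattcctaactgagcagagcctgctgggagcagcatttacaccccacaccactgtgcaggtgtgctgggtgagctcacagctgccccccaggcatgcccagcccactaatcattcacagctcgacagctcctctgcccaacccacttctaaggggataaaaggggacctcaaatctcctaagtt
Bmp4, chr14:46390670-46390919, minus strand: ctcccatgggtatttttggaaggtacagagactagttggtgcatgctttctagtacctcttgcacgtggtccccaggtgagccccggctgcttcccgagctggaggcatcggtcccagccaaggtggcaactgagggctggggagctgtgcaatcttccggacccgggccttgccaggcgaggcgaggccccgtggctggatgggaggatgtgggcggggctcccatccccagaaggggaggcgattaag
Syt1, chr10:109010976-109011225, minus strand: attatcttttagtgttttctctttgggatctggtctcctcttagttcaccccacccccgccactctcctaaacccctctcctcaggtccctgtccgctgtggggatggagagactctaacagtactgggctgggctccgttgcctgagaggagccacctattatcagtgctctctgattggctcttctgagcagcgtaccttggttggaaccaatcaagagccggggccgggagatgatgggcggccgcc
The first base of the motif lay 35 bases before the start site in Mmp13, 69 in Plaur, 111 in Sprr1b and 116 in Ivl, and in each of these genes the whole motif lay inside the wound peak.

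The lists differ in ways that bear on every count. The wound list held 37214 peaks with a median width of 921 bp, and the unwounded list 30974 peaks with a median of 737 bp. The weakest peak kept had a −log10 p of 32.2 in the wound list and 13.5 in the unwounded list. Read depth is unknown. The unwounded list is taken for day 0 from the name it was deposited under, while the peaks in it are named as controls of day 7. Of the 6 keratinocyte markers checked, Trp63, Krt14, Itga6 and Itgb4 had a peak in the gene or within 1 kb in both lists. Krt5 and Col17a1 had none in the unwounded list, although both had one in the wound list and in the unwounded list of day 80. Keratinocyte genes absent from the day 0 list are therefore also given against the day 80 list, which comes from 3 samples with the genotype of the day 0 group.

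The wound list alone held 32.6% of the regions (interval 32.2% to 33.0%), the unwounded list alone held 18.4% (18.0% to 18.7%) and both held 49.0% (48.6% to 49.5%). Between the unwounded lists of day 0 and day 80, 70.3% of 36925 regions were common to both. With the wound list cut to its strongest 30974 peaks, the wound list alone held 10536 regions and the unwounded list alone 10302. Lists of equal length must give near equal counts, so this cut says nothing of the source of the excess, which was not tested. Regions held by 1 list alone were mostly weak in that list. Scores are the authors' and are read only within a list. In the wound list, 29.4% of peaks in the lowest 10% by score overlapped a day 0 peak, against 96.9% in the highest 10%. In the unwounded list these shares were 47.2% and 96.7%.

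Few of the regions of 1 list alone lay at gene ends. Within 1 kb of either end of a protein-coding gene lay 12.2% of the regions of the wound list alone (11.7% to 12.8%) and 8.63% of those of the unwounded list alone (8.03% to 9.25%), against 37.2% of the shared regions. Inside genes and over 1 kb from their ends lay 45.0%, 43.5% and 31.8% of the 3 classes, in the same order. No protein-coding gene was found within 50 kb of 13.4% of the regions of the wound list alone, 23.3% of those of the unwounded list alone and 10.7% of the shared regions.

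Lists outside the pair held the regions of the 2 classes unequally. Of the regions of the wound list alone, 62.9% were also in the day 3 list of the partial-thickness wound and 51.1% in its day 7 list. Their cells are labelled as descending from hair follicle stem cells. The unwounded list of day 80 held 16.5%, the hair follicle stem cell list of day 0 17.9%, and the full-thickness list of day 80 27.9% of these regions, while 22.8% were in none of the other 6 lists. Of the regions of the unwounded list alone, 69.6% were in the unwounded list of day 80, 56.9% in the full-thickness list of day 80, and 20.7% and 29.7% in the early partial-thickness lists. Only 9.75% of them were in none of the other 6 lists. These intervals were at most about 1 percentage point to either side, and the lists differ in length and in their weakest peak.

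**Figure D1:**
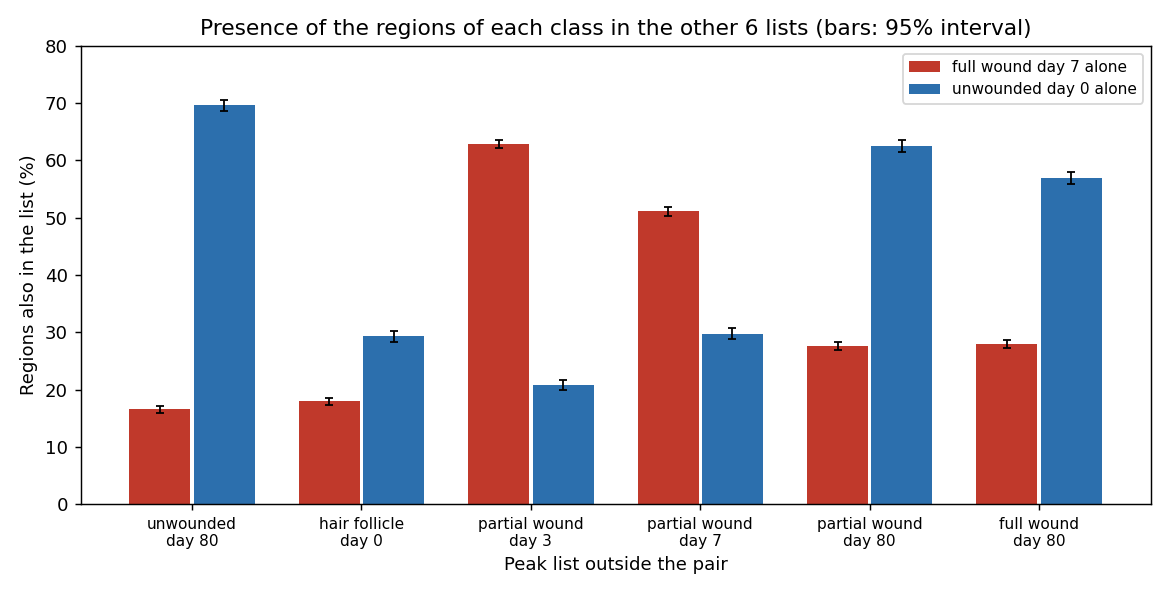
Share (%, vertical axis) of the regions of the full wound day 7 list alone (red) and of the unwounded day 0 list alone (blue) that were also in each of the 6 lists outside the pair (horizontal axis), with 95% intervals. The red bars were highest in the partial wound lists of days 3 and 7 (62.9% and 51.1%) and the blue bars in the unwounded list of day 80 (69.6%).

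Near genes, 39194 regions had a protein-coding gene within 50 kb. The wound list alone held 32.8% of them and the unwounded list alone 16.4%, which is the background for every gene list below. Of 13866 genes with a region, 5775 (41.6%) had more regions of the wound list alone than of the unwounded list alone, and 2426 (17.5%) had more of the unwounded list alone. The median difference per gene was 0. With lists of equal length these shares were 31.8% and 24.6%, and the background for gene lists was 25.7% and 22.7%. The median number of regions per gene was 2. Many genes of the lists below had more, so their tilt counts by gene cannot be set directly against the shares over all genes.

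Basal keratinocyte genes had an excess of wound regions over the background against the day 0 list, and less of one against the day 80 list. Near 17 such genes, which encode the basal keratins, hemidesmosome parts and p63, 55 of 122 regions were in the wound list alone (45.1%, 36.1% to 54.3%) and 9 in the unwounded list alone (7.38%, 3.43% to 13.5%). By gene, 14 had more regions of the wound list alone and 1 more of the unwounded list alone, with a median difference of 2 per gene. Over all genes with a region the shares were 41.6% and 17.5%, but the median gene had only 2 regions. Of the 55 regions, 19 were in the unwounded list of day 80, against 17.4% of all wound regions near genes. With the day 80 list in place of day 0 the counts were 42 and 16 of 128 regions, and 32.8% is close to the 31.2% of all regions near genes in that setting.

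Trp63, which encodes p63, the transcription factor that stratified epithelia depend on (gene ID 22061, chromosome 16, 25683763 to 25892088), was nearest to 14 regions of the wound list and 2 of the unwounded list. Of these, 12 were in the wound list alone, 10 inside the gene and 2 beyond its end, and 2 were shared. Their scores stood between the 5.15 and the 71.8 percentile of the wound list. The strongest of those inside the gene spanned 25725002 to 25725980, with a fold enrichment of 10.9, the authors' ratio over the local background of that list. Of the 12, 8 were also in the unwounded list of day 80, and against that list Trp63 had 4 regions of the wound list alone and 1 of the unwounded list alone. Col17a1, which encodes a hemidesmosome collagen, had 5 regions of the wound list alone, 0 of the unwounded list alone and 1 shared, and 2 and 1 against the day 80 list. Krt14 (chromosome 11, 100203162 to 100207510) had 1 shared region and 1 in the unwounded list alone. The single Krt5 region (chromosome 15, 101712745 to 101714607), which covers the promoter printed above, was in the wound list and in all 6 lists outside the pair, and so was missing from the day 0 list alone among the 8.

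The wound keratins and alarmins had the highest share of wound regions among the 30 lists, on few regions. The list holds 10 genes, of which 9 had a region, and 10 of 14 regions were in the wound list alone (71.4%, 41.9% to 91.6%) and 0 in the unwounded list alone (0 of 14 allows up to 23.2%). With the day 80 list in place of day 0 the counts were 9 and 0. Krt6a, which encodes a keratin that keratinocytes make after injury (gene ID 16687, chromosome 15, 101689928 to 101694305), had 2 regions, both in the wound list alone. The first overlapped the gene's end (101694191 to 101696029, 19.0 percentile, fold enrichment 3.32) and the second lay 3015 bp away (25.8 percentile, 3.77). Both were also in the early lists of the partial-thickness wound, of days 3 and 7, and in the hair follicle stem cell list, and neither was in the unwounded list of day 80. Krt6b, its neighbour and near copy, had 2 regions that no other list held. Reads of near copies can be split between them, so the values of Krt6a and Krt6b are uncertain. Krt17, a partner of keratin 6, had 1 region, and it was shared.

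S100a8 and S100a9 encode the calprotectin subunits, alarmins of injured epithelium, and had 2 and 1 regions of the wound list alone and 0 of the unwounded list alone. S100a8, set against the day 80 list, had 1 region of the wound list alone and 1 shared, and the single S100a9 region was shared. Sprr1b had 2 regions of the wound list alone and 1 shared, and Sprr2h, another cornified envelope precursor of a family with near copies, 1 of the wound list alone. Fosl1, which encodes the AP-1 subunit Fra-1, had 1 region, and it was shared.

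Krt6a, Krt6b and Krt5 sit in the second longest unbroken run of regions of the wound list alone. It counts 15 regions over 326.7 kb of the type II keratin cluster (chromosome 15, 101426236 to 101752902), with no shared region and none of the unwounded list alone between them. Its nearest genes run from Krt7 to Krt71 and include the hair keratin genes Krt83, Krt84 and Krt86. Of the 15 regions, 12 were in each of the partial-thickness lists of days 3 and 7, 4 in the unwounded list of day 80 and 5 in the hair follicle stem cell list. Their scores stood between the 8.11 and the 70.4 percentile of the wound list. The longest run, 16 regions on chromosome 13 (44316668 to 44674611), had no protein-coding gene within 50 kb of any of its regions, and 3 of them were in the unwounded list of day 80. Runs follow from how regions are spaced, and 50 runs of the wound list alone and 32 of the unwounded list alone had 8 or more regions.

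Genes of migration, matrix and proteolysis also exceeded the background on the wound side. Of 25 genes 23 had a region, and 55 of 129 regions were in the wound list alone (42.6%, 34.0% to 51.6%) and 11 in the unwounded list alone (8.53%), with 15 genes tilted to the wound list, 5 to the unwounded list and a median difference of 1. Of the 55 regions, 8 were in the unwounded list of day 80. Against that list the counts were 56 and 20 of 138. With lists of equal length the counts were 35 and 21 of 109, or 32.1% and 19.3%.

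Mmp13, which encodes a collagenase made at the wound edge (gene ID 17386, chromosome 9, 7272514 to 7283333), had 4 regions, all in the wound list alone and none in either unwounded list. They lay 13639, 9828 and 1962 bp before the gene and across its start (7272215 to 7272711, fold enrichment 7.15). The region at 1962 bp had a fold enrichment of 10.7 and a score at the 58.5 percentile, and with the one at 9828 bp it was also in both early partial-thickness lists, of days 3 and 7. Itga5, which encodes the alpha subunit of the fibronectin receptor (gene ID 16402, chromosome 15, 103344286 to 103366791), had 4 regions of the wound list alone and 1 shared. One of the 4 covered the end of the gene at 103365328 to 103367127 (fold enrichment 6.62), and it was the only one of them in the unwounded list of day 80. All 4 were in the day 3 list of the partial-thickness wound. Plaur, named here after its values were seen, had 3 regions, all in the wound list alone, and 1 of these was in the unwounded list of day 80.

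Ephb2 and Epha2, which encode ephrin receptors, had 6 and 4 regions of the wound list alone and 0 of the unwounded list alone, and none of these was in the unwounded list of day 80. Actn1, which encodes an actin cross-linker, had 6 and 0, likewise with none in the day 80 list. With lists of equal length Ephb2 and Epha2 had 2 regions each of the wound list alone. Cd44, which encodes a hyaluronan receptor, had 7 and 1, and with lists of equal length 3 and 3.

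**Figure D2:**
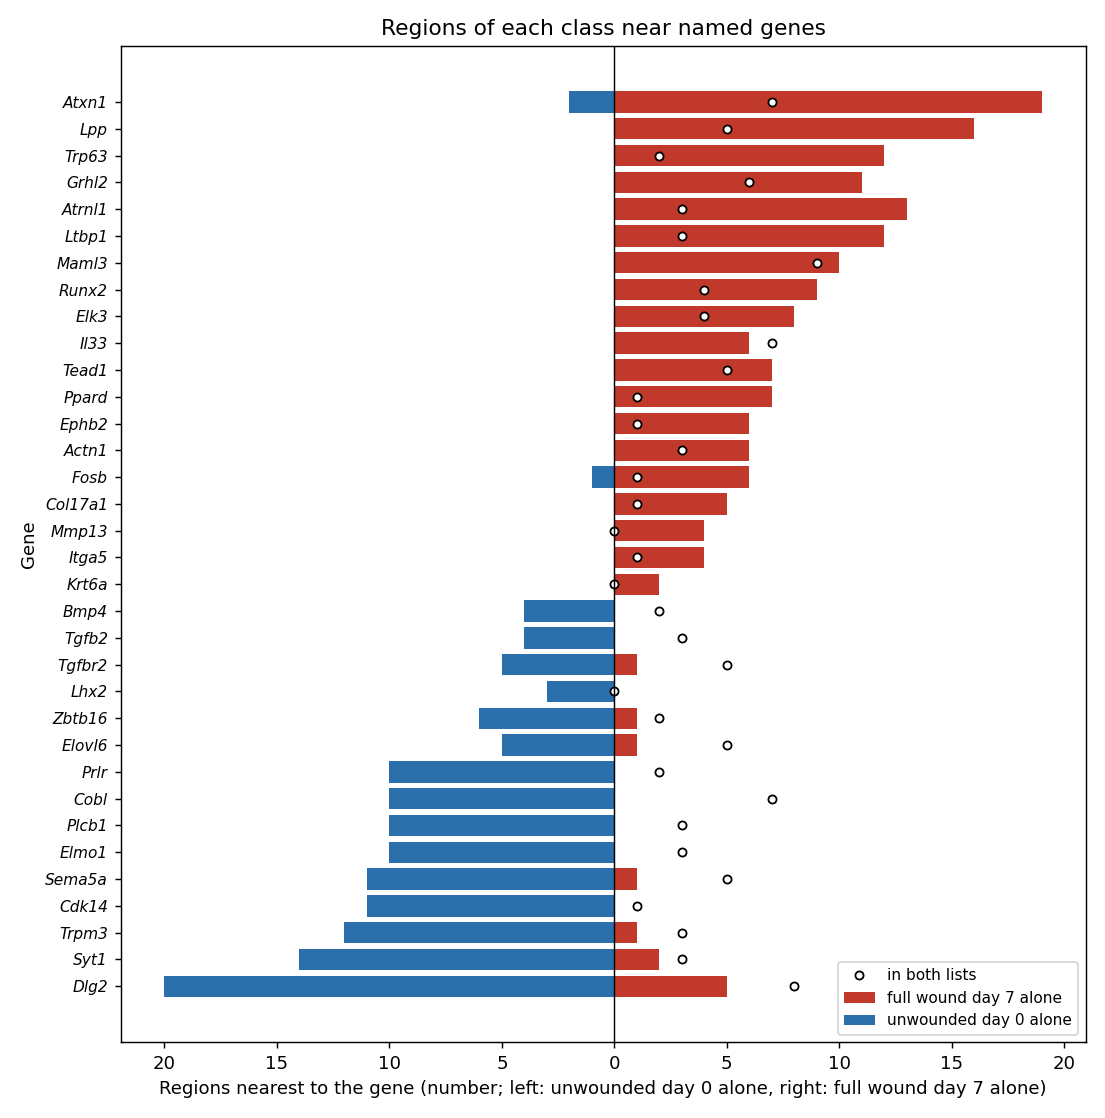
Number of regions nearest to each of 34 genes (vertical axis) that were in the full wound day 7 list alone (red, to the right) or in the unwounded day 0 list alone (blue, to the left), with the shared regions as open circles, all on 1 count axis. Genes from Atxn1 to Krt6a had more red regions and those from Bmp4 to Dlg2 more blue ones. The genes were chosen for the text with these values known.

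Injury signalling genes differed among themselves. The interleukin-1, chemokine and NF-kB list had 50 of 151 regions in the wound list alone (33.1%, 25.7% to 41.2%), near the background of 32.8%, and 14 in the unwounded list alone (9.27%, 5.16% to 15.1%). Of its 27 genes with a region, 18 tilted to the wound list and 3 to the unwounded list, counts that cannot be set directly against the shares over all genes. Il33, which encodes an alarmin of barrier cells (gene ID 77125, chromosome 19, 29925113 to 29960718), had 6 regions of the wound list alone, 0 of the unwounded list alone and 7 shared. None of the 6 was in the unwounded list of day 80. Nfkb1, which encodes an NF-kB subunit, had 7, 0 and 12, and with the upper 50% of each list by score the difference turned to −3. Il1r2, the decoy receptor of interleukin-1, had 4 regions of the wound list alone, and Il1a, an interleukin-1 ligand, 3, with 0 of the unwounded list alone at either gene. With lists of equal length these counts were 2 and 1, with 1 of the unwounded list alone at each.

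Il20 encodes a cytokine that acts on keratinocytes, is not in that list, and was named for 1 of the 10 highest scores among regions of the wound list alone. That region lay 3949 bp from the gene (chromosome 1, 130902226 to 130903036) and had a fold enrichment of 14.0 and a score at the 98.95 percentile of the wound list. It was also in all 3 partial-thickness lists and in the full-thickness list of day 80, and in no unwounded list. The highest score of all regions of the wound list alone was that of a region inside Klra4. That region (chromosome 6, 130065222 to 130065505) had a fold enrichment of 14.9 and stood at the 99.5 percentile, and no other list held it.

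AP-1 and stress factor genes had 30 of 83 regions in the wound list alone (36.1%, 25.9% to 47.4%) and 7 in the unwounded list alone (8.43%), with 12 of 18 genes tilted to the wound list and 1 to the unwounded list. The interval of the wound share included the background of 32.8%. Fosb, which encodes an AP-1 subunit, had 6, 1 and 1 regions in the wound list alone, the unwounded list alone and both. Both early partial-thickness lists held all 6, and 3 were in the unwounded list of day 80. Ier3, an early response gene, had 5, 0 and 3, or 3, 0 and 3 with lists of equal length. Jun had 3, 0 and 3, and with the upper 50% of each list by score its difference turned to −1. Fos had 3, 2 and 7, and its difference turned to −1 with lists of equal length and with a window of 10 kb.

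The Stat3 and gp130 list stood below the background on the wound side, with 18 of 85 regions in the wound list alone (21.2%, 13.1% to 31.4%) and 14 in the unwounded list alone (16.5%). The difference of 4 turned to −7 with lists of equal length. Its members pointed both ways. Stat3 had 4 regions of the wound list alone and Pim1, a kinase gene induced by Stat factors, 3, with 0 of the unwounded list alone at both. Pim1 had 1 region of the wound list alone and 2 shared against the day 80 list, and Stat3 had 2 of the wound list alone with lists of equal length. Among its receptor genes, Lifr, which encodes the leukaemia inhibitory factor receptor, had 0 and 3, and Il6st, which encodes gp130 itself, 0 and 2, or 1 and 1 against the day 80 list. EGF receptor genes were close to the background in both directions, with 32 and 17 of 100 regions, and Egfr had 6 of the wound list alone, 3 of the unwounded list alone and 9 shared.

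Transcription factor genes of the Runx, Ets and Klf families had 56 of 137 regions in the wound list alone (40.9%, 32.6% to 49.6%) and 12 in the unwounded list alone (8.76%). The interval of the wound share just included the background of 32.8%. Of 17 genes, 14 tilted to the wound list and 1 to the unwounded list, and the median difference was 2. Of the 56 regions, 5 were in the unwounded list of day 80. Runx2, best known for bone formation (gene ID 12393, chromosome 17, 44495987 to 44814797), had 9 regions of the wound list alone, 0 of the unwounded list alone and 4 shared. Against the day 80 list it had 10 and 0, and with lists of equal length 8 and 0. Elk3, which encodes an Ets factor downstream of Ras signals (gene ID 13713, chromosome 10, 93247415 to 93311159), had 8, 0 and 4. Runx3 had 3 regions, all in the wound list alone and all between 39590 and 46604 bp from the gene, and Klf3 had 5, 0 and 2, or 3, 1 and 4 against the day 80 list.

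Grhl2, which encodes a grainyhead factor that maintains epithelial junctions (gene ID 252973, chromosome 15, 37232821 to 37363569), had 11 regions of the wound list alone, 0 of the unwounded list alone and 6 shared. Only 1 of the 11 was in the unwounded list of day 80, and the partial-thickness lists held 4 at day 3 and 6 at day 7. It supplied 11 of the 20 wound regions of the epithelial-mesenchymal plasticity list, which had 52 regions in all and 4 of the unwounded list alone.

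The Notch list, whose receptors drive keratinocytes out of the basal layer, had 35 of 84 regions in the wound list alone (41.7%, 31.0% to 52.9%) and 6 in the unwounded list alone (7.14%). The interval of the wound share included the background of 32.8%. Against the day 80 list the share was 30.8%, with 28 and 13 of 91 regions. Maml3, which encodes a Notch coactivator, had 10, 0 and 9, Hes1, a Notch target, 5, 1 and 3, and Notch1 and Notch3 each 3, 0 and 1. Maml3 had 6, 3 and 13 and Hes1 3, 1 and 5 against the day 80 list. The Hippo and Tead list had 25 and 15 of 90 regions, and 18 and 18 of 83 with lists of equal length. Within it, Tead1, which encodes the DNA-binding partner of Yap, had 7 regions of the wound list alone and 0 of the unwounded list alone, and Yap1 had 1 and 3.

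**Figure D3:**
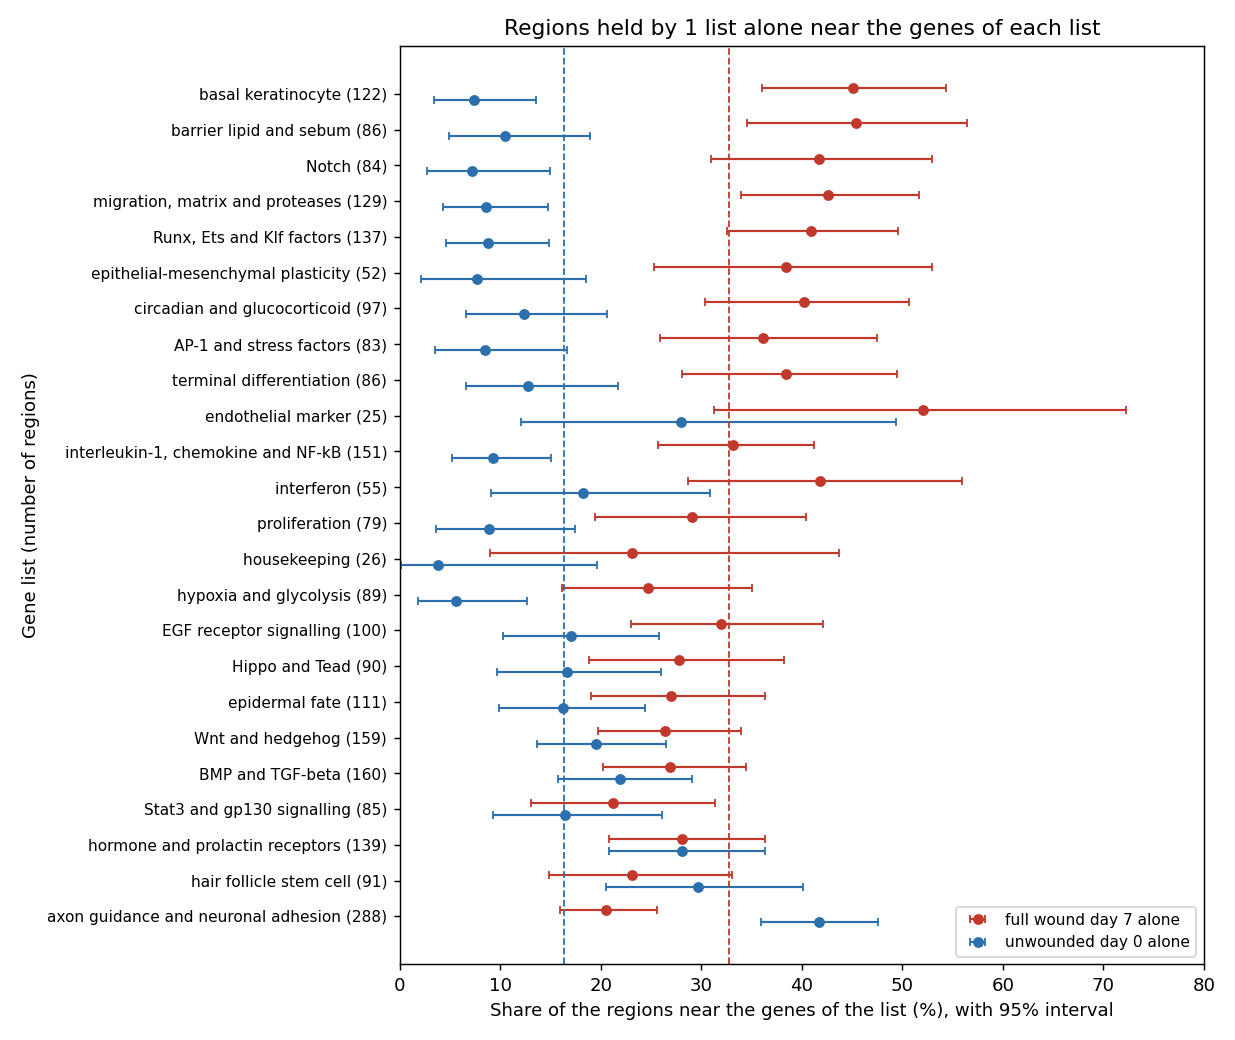
Share of the regions near the genes of each list (%, horizontal axis, with 95% intervals) that were in the full wound day 7 list alone (red) or the unwounded day 0 list alone (blue), for lists with at least 25 regions (number in brackets, vertical axis). Dashed lines mark the shares over all regions near genes, 32.8% and 16.4%. In red, endothelial markers stood highest at 52.0% on 25 regions (31.3% to 72.2%), and basal keratinocyte and barrier lipid genes at 45.1% and 45.3%. In blue, axon guidance genes stood at 41.7%.

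BMP and TGF-beta genes had members with either tilt, and the shares of the list did not leave the background beyond their intervals. Of 160 regions near 27 genes, 43 were in the wound list alone (26.9%, 20.2% to 34.4%) and 35 in the unwounded list alone (21.9%, 15.7% to 29.1%), and 28 of the 35 were also in the unwounded list of day 80. The difference of 8 turned to −10 with lists of equal length. By gene, 13 tilted to the wound list and 10 to the unwounded list. Bmp4, a ligand that holds hair follicle stem cells at rest (gene ID 12159, chromosome 14, 46383525 to 46390669), had 0 regions of the wound list alone, 4 of the unwounded list alone and 2 shared. The promoter region, 46390126 to 46391239, had a score at the 73.6 percentile of the unwounded list and a fold enrichment of 5.76, and the others lay 17596, 31380 and 48853 bp from the gene. All 4 were in the unwounded list of day 80, and neither early partial-thickness list, of day 3 or day 7, held any. In the full-thickness list of day 80, 3 of the 4 were present.

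Tgfb2, which encodes a TGF-beta ligand (gene ID 21808, chromosome 1, 186622787 to 186709697), had 0, 4 and 3. All 4 were in both day 80 wound lists, 3 in the unwounded list of day 80 and none in either early partial-thickness list. Tgfbr2 and Tgfbr3, which encode the type II receptor and its coreceptor, had 1 and 2 regions of the wound list alone and 5 each of the unwounded list alone. Smad3, which carries the signal to the nucleus, had 7, 1 and 5, the opposite tilt. The unwounded tilt of Bmp4, Tgfb2 and Tgfbr2 had the same sign with lists of equal length (4, 4 and 5 regions of the unwounded list alone, with 0, 0 and 1 of the wound list alone) and against the day 80 list (5, 5 and 5, with 0, 0 and 1).

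Wnt and hedgehog genes had 42 and 31 of 159 regions, and the difference of 11 turned to −12 with lists of equal length. Against the day 80 list they had 40 and 40. Gli2, a hedgehog effector, had 7, 1 and 7, and Wnt7b, a Wnt ligand of the epidermis, 6, 1 and 4, or 3, 1 and 7 against the day 80 list.

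**Figure D4:**
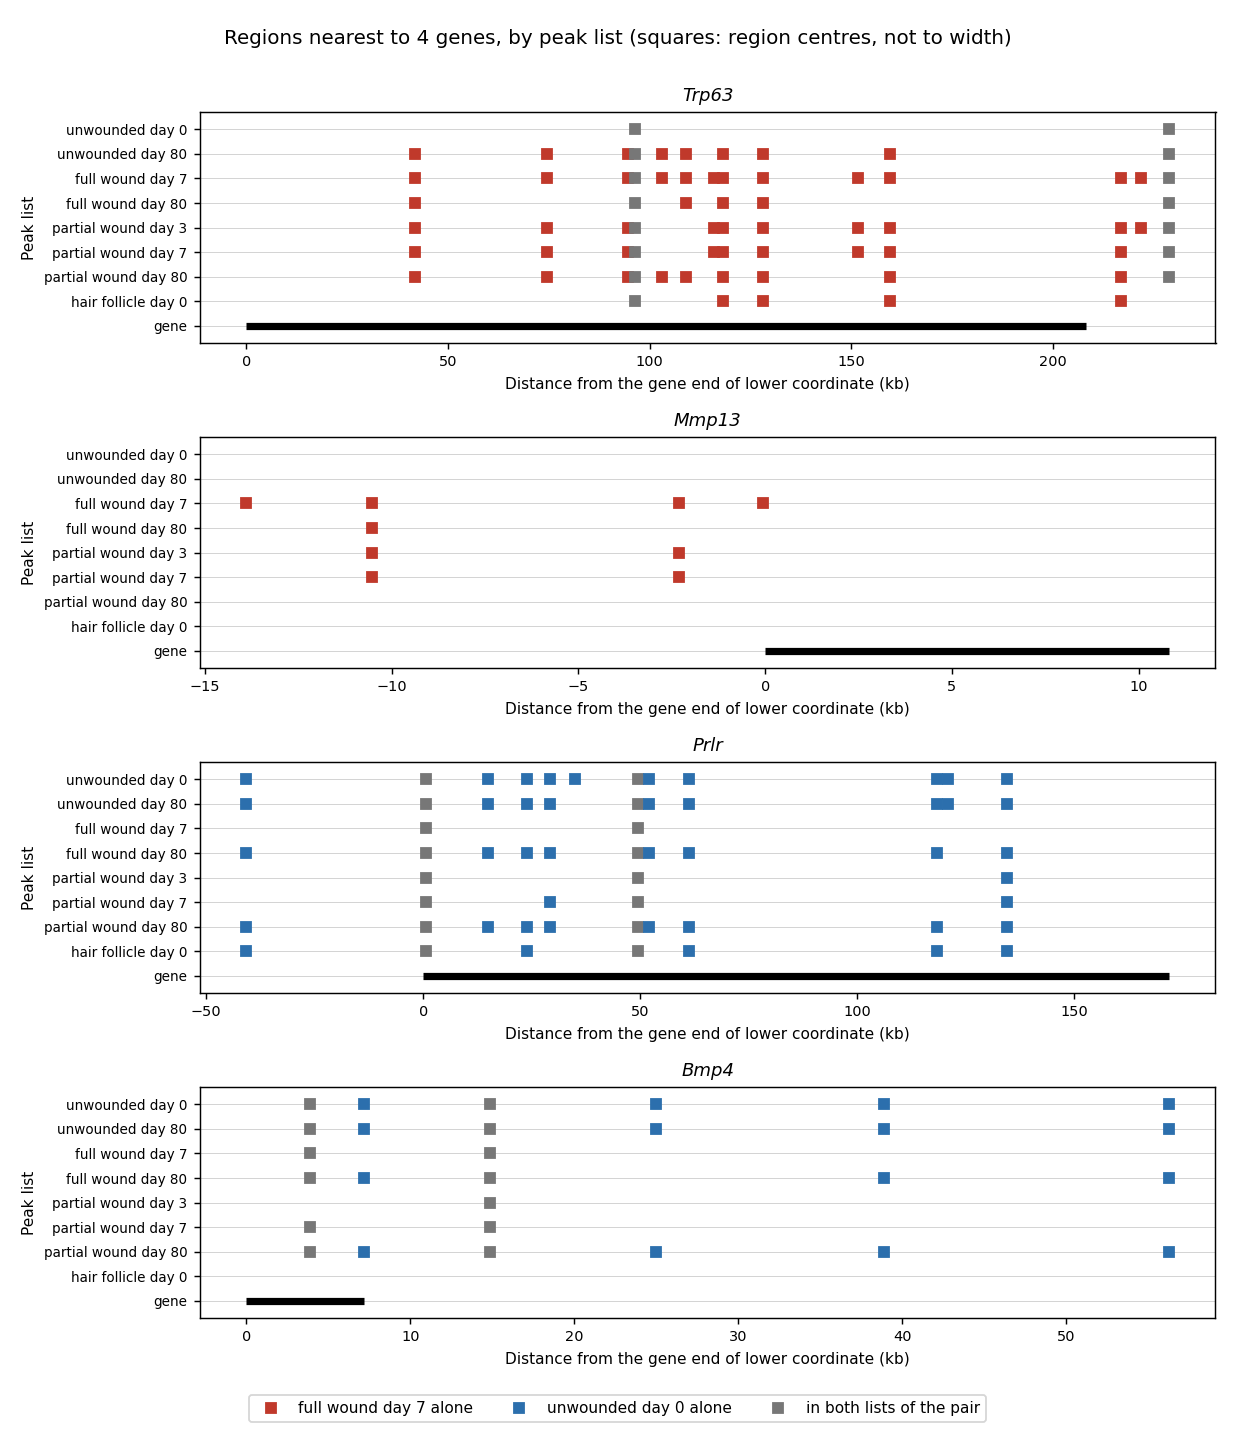
Regions nearest to Trp63, Mmp13, Prlr and Bmp4 as squares at their centres, by distance from the gene end of lower coordinate (kb, horizontal axis), in each of the 8 peak lists (vertical axis). Red squares are regions of the full wound day 7 list alone, blue of the unwounded day 0 list alone and grey of both, and the black bar is the gene. Of the 12 red Trp63 regions, 8 are also in the unwounded list of day 80, none of the 4 Mmp13 regions is, and all 4 blue Bmp4 regions are.

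Genes of the hair follicle stem cell had 21 of 91 regions in the wound list alone (23.1%, 14.9% to 33.1%) and 27 in the unwounded list alone (29.7%, 20.5% to 40.2%), against backgrounds of 32.8% and 16.4%. The difference of −6 turned to 1 against the day 80 list. Sox9, whose promoter drives the Cre of the wounded mice, had 2 regions, both shared. Lgr5, an R-spondin receptor that marks follicle stem cells, had 1 region in each list, and they did not overlap. Lhx2, a follicle stem cell factor (gene ID 16870, chromosome 2, 38339271 to 38369737), had 3 regions, all in the unwounded list alone, of which 2 were in all 6 lists outside the pair. Nfib had 2, 5 and 7. Epidermal fate factors had 30 and 18 of 111 regions, and the difference of 12 turned to −4 with lists of equal length. Klf5 had 1, 0 and 2, Gata3 1, 2 and 4, Prdm1 4, 0 and 4, and Sox6 6, 1 and 6.

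Barrier lipid genes stood on the wound side of the background, while the intervals of the circadian and differentiation lists included it. The barrier lipid list had 39 of 86 regions in the wound list alone (45.3%, 34.6% to 56.5%) and 9 in the unwounded list alone (10.5%). With lists of equal length the counts were 32 and 13 of 79, and against the day 80 list 33 and 13 of 89. Ppard, which encodes a fatty acid-sensing nuclear receptor of the epidermis (gene ID 19015, chromosome 17, 28232754 to 28301469), had 7, 0 and 1, and Scd2, which encodes a fatty acid desaturase, 4, 0 and 1, or 2, 0 and 3 against the day 80 list. Elovl6, which encodes a fatty acid elongase, tilted the other way with 1, 5 and 5. The circadian and glucocorticoid list had 39 and 12 of 97 regions, or 40.2% in the wound list alone (30.4% to 50.7%). Against the day 80 list it had 32 and 13 of 97, and 33.0% is close to the background of 31.2% there. The clock genes Arntl, Cry1 and Per1 had 7, 5 and 3 regions of the wound list alone and 1, 0 and 0 of the unwounded list alone, and Fkbp5, a glucocorticoid target, had 5 and 0. Per1 had 1 region of the wound list alone and Fkbp5 had 3 against the day 80 list. Zbtb16, which encodes the zinc finger factor PLZF, had 1, 6 and 2. The labels used here do not give the hour of sampling.

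Terminal differentiation genes had 33 and 11 of 86 regions, or 38.4% in the wound list alone (28.1% to 49.5%). With the day 80 list in place of day 0 they had 31 and 20 of 95, or 32.6% and 21.1%, beside 31.2% and 18.3% of all regions near genes. Maf had 5, 1 and 1 and Klf4, a barrier factor, 3, 0 and 3, and with lists of equal length they had 3 and 1 regions of the wound list alone. Interferon genes had 23 and 10 of 55 (41.8%, 28.7% to 55.9%, in the wound list alone) and 17 and 9 of 54 against the day 80 list, with Irf1 at 5, 0 and 3, or 3, 1 and 5 against that list, and Irf2 at 6, 1 and 3. The interferon interval included the background of 32.8%. Proliferation genes had 23 and 7 of 79, or 29.1% in the wound list alone (19.4% to 40.4%). Hypoxia and glycolysis genes had 22 and 5 of 89, or 24.7% (16.2% to 35.0%). Both intervals included the background of 32.8%. In the unwounded list alone the shares were 8.86% (3.64% to 17.4%) and 5.62% (1.85% to 12.6%), beside a background of 16.4%. Vegfa, an angiogenic ligand, had 3, 0 and 2, and Hk2, which encodes a hexokinase, 3, 0 and 3.

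On the unwounded side, genes of axon guidance and neuronal adhesion had a share above the background of 16.4%. Of 28 such genes 27 had a region, and near them lay 288 regions, of which 120 were in the unwounded list alone (41.7%, 35.9% to 47.6%) and 59 in the wound list alone (20.5%, 16.0% to 25.6%). Of the 120 regions, 91 were in the unwounded list of day 80, against 69.4% of all unwounded regions near genes. With lists of equal length the counts were 134 and 38, and against the day 80 list 120 and 70. By gene, 15 tilted to the unwounded list and 8 to the wound list. The list was chosen with earlier results of these data known, so its share and interval are not independent of them. Its members Dlg2, Syt1, Sema5a, Slit3 and Robo1 are among the 10 genes with the most regions of the unwounded list alone. Dlg2, which encodes a scaffold of synapses and junctions (gene ID 23859, chromosome 7, 90476188 to 92449246), had 5, 20 and 8. Syt1, which encodes a vesicle calcium sensor (gene ID 20979, chromosome 10, 108497650 to 109010980), had 2, 14 and 3 and lies in the longest run of the unwounded list alone, 15 regions. Of these 15, 14 were in the unwounded list of day 80, 11 in the full-thickness list of day 80 and 0 in the day 3 list of the partial-thickness wound. The Syt1 promoter printed above lay in a peak at the 92.4 percentile of the unwounded list. Sema5a, a semaphorin, had 1, 11 and 5, Slit3, a guidance ligand, 2, 11 and 8, its receptor gene Robo1 5, 11 and 6, and Dab1, a reelin adaptor, 0, 7 and 7.

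These genes are long, and gene length moved with the share. Near genes under 20 kb, 11.2% of regions were in the unwounded list alone (10.6% to 11.9%), and near genes over 300 kb 31.6% (30.0% to 33.1%). On the wound side the shares were 31.5% and 29.8%. The part of gene length in the axon guidance counts was not tested.

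Prlr, which encodes the prolactin receptor, which is known to affect the timing of the hair cycle (gene ID 19116, chromosome 15, 10177238 to 10349190), had 0 regions of the wound list alone, 10 of the unwounded list alone and 2 shared. Of the 10, 9 were in the unwounded list of day 80, 8 in the full-thickness list of day 80 and 2 in the day 7 list of the partial-thickness wound. Their scores stood between the 11.7 and the 78.3 percentile of the unwounded list. The counts were 0 and 10 with lists of equal length and 0 and 10 against the day 80 list. The list of hormone receptors around it had 39 regions of each list alone out of 139, or 28.1% each (20.8% to 36.3%). This interval included the background of 32.8% for the wound list alone and lay above that of 16.4% for the unwounded list alone. Esr1, the oestrogen receptor alpha gene, had 1, 4 and 4. Ghr, the growth hormone receptor gene, had 0, 2 and 10, and its difference turned to 1 with the upper 50% of each list by score. Rora, a retinoic acid-related orphan receptor gene, had 13, 4 and 8, and its difference turned to −2 against the day 80 list.

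By count alone, without lists, the genes with the most regions of the wound list alone were Atxn1 (19, with 2 of the unwounded list alone and 7 shared), Lpp (16, 0 and 5) and Macrod2. Lpp encodes a protein of focal adhesions and cell contacts. Macrod2, a gene of 1997.7 kb, was among the 10 with the most regions on both sides, with 16 of the wound list alone, 17 of the unwounded list alone and 22 shared, and its difference turned to 5 against the day 80 list. Pard3, which encodes a cell polarity scaffold, had 14, 7 and 11. Atrnl1 had 13, 0 and 3, or 8, 1 and 2 with lists of equal length, and Ltbp1, which encodes a binding protein that stores latent TGF-beta in the matrix, 12, 0 and 3. For Ltbp1 none of the 12 was in the unwounded list of day 80, and 7 were in the full-thickness list of that day. On the unwounded side, the 10 genes with the most regions included, beside Dlg2, Macrod2 and Syt1, Pde4d, which encodes a cyclic AMP phosphodiesterase (7, 18 and 16), Trpm3, a cation channel gene (1, 12 and 3), and Cdk14, a cyclin-dependent kinase gene (0, 11 and 1). Cdk14 had 3 regions of the unwounded list alone when the day 80 list took the place of day 0. Plcb1, Elmo1 and Cobl each had 0 regions of the wound list alone and 10 of the unwounded list alone, with 3, 3 and 7 shared.

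Among the 10 regions of the unwounded list alone with the highest scores, the strongest lay 18421 bp from Kcnt2 (chromosome 1, 140226603 to 140227236, 99.4 percentile, fold enrichment 15.0). Another lay 13749 bp from Ppargc1a, a coactivator gene of mitochondrial metabolism (98.1 percentile, fold enrichment 12.7).

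Markers of other cell types that skin holds had few regions. Of 17 immune markers found, 8 had any region, with 8 regions of the wound list alone, 2 of the unwounded list alone and 2 shared. The wound share was 66.7% (34.9% to 90.1%), against 32.8% of all regions near genes. Against the day 80 list the counts were 7 and 5 of 15. Spi1, which encodes the myeloid factor PU.1, had 2 regions and Ikzf1, a lymphoid factor gene, 1, all in the wound list alone. Cd3e, Cd68 and H2-Ab1 had 1 each, also in the wound list alone. Adgre1 had 1 of the unwounded list alone and 1 shared, Ptprc had 1 of each list alone, and Csf1r, Cd4, Cd8a and Cd74 had 0 in either list. Fibroblast markers had 3 and 6 of 13 regions, endothelial markers 13 and 7 of 25, of which Pecam1 had 6 and 1, melanocyte markers 5 and 2 of 14, Merkel and nerve markers 2 and 3 of 7, and muscle markers 4 and 0 of 7. In that order, 23.1%, 52.0%, 35.7%, 28.6% and 57.1% of the regions were in the wound list alone. Each of these intervals was wide and included 32.8% (for endothelial markers 31.3% to 72.2%). Col1a2, Pdgfrb and Kdr had 0 in either list. Among 14 housekeeping genes, 6 and 1 of 26 regions were in the wound list alone and the unwounded list alone. The part of other cells in the counts of keratinocyte lists was not tested.

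Chromosomes differed in their shares. On chromosome X, 97 of 854 regions were in the wound list alone (11.4%, 9.31% to 13.7%) and 333 in the unwounded list alone (39.0%, 35.7% to 42.4%), the reverse of the 32.6% and 18.4% over all chromosomes. On chromosome 11, which holds Krt14 and Stat3, the shares were 42.7% and 13.1%, and on chromosome 4 37.0% and 14.8%. The labels used here do not give the sex of the mice, and its part in the chromosome X counts was not tested.

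**Figure D5:**
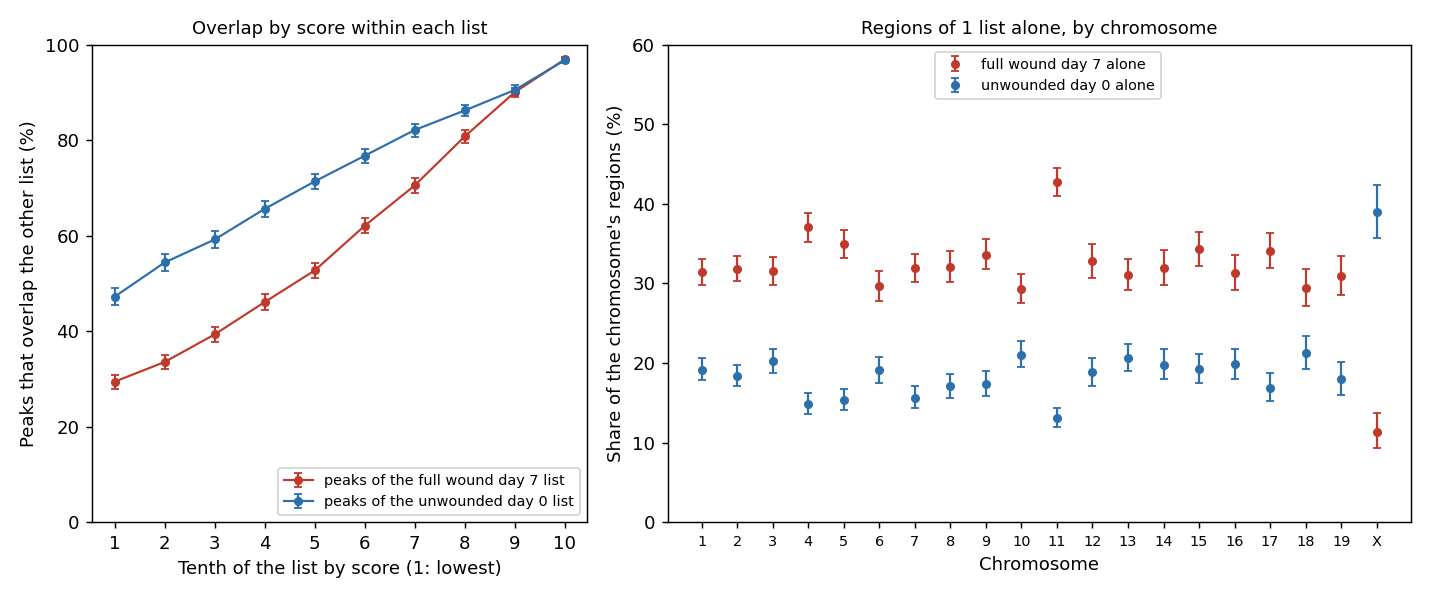
Left: share of peaks that overlap the other list of the pair (%, vertical axis) in bins of 10% of the list by score (horizontal axis), rising from 29.4% to 96.9% in the full wound day 7 list (red) and from 47.2% to 96.7% in the unwounded day 0 list (blue). Right: share of each chromosome's regions (%, vertical axis) in the full wound day 7 list alone (red) or the unwounded day 0 list alone (blue), with chromosome X at 11.4% and 39.0%. Bars are 95% intervals.

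Promoter windows, from 250 bases before to 50 after the start site, were set against the same lists. Of 21262 windows of protein-coding genes, 1603 (7.54%) overlapped a peak of the wound list alone, 495 (2.33%) of the unwounded list alone and 8546 of both. In the day 3 list of the partial-thickness wound, 72.6% of the wound windows and 49.3% of the unwounded windows were present. In the unwounded list of day 80 the shares were 37.4% and 65.7%. The AP-1 motif TGANTCA was in 7.17% of the wound windows (5.96% to 8.55%), 5.25% of the unwounded windows (3.46% to 7.60%), 4.75% of the shared windows and 6.99% of all windows. Wound windows thus held it at about the share of all windows, and the promoters printed above were picked because they hold it. Among the genes of the lists, 81 windows of 69 genes were in the wound list alone, and 9 of these windows held the motif, those of Cd68, Dll1, Ghr, Ivl, Krtdap, Mmp13, Plaur, Sprr1b and Sprr2h. Windows were counted by the peaks they overlap and regions by their nearest gene, so the counts of a gene can differ. Ghr is among the 9, although it had 0 regions of the wound list alone. Ivl and Krtdap, both genes of differentiating keratinocytes, were named after their values were seen. By regions, Ivl had no wound tilt, with 1 of the wound list alone, 1 of the unwounded list alone and 1 shared. These counts were 0, 1 and 1 with lists of equal length and 1, 2 and 1 against the day 80 list. Of 14 windows of listed genes in the unwounded list alone, 0 held the AP-1 motif. These 14 windows are too few to tell 0 from the 5.25% of all unwounded windows, so the 2 counts of listed genes show no difference between the classes.

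The letters GGGNGGGG, read on both strands for Klf factors, were in 60.4% of the wound windows (58.0% to 62.9%), 48.1% of the unwounded windows, 49.4% of the shared and 39.4% of all windows. Matches within a longer run of G overlap each other, and each window was counted once. The letters CCGGAA for Ets factors were in 20.1%, 10.7%, 33.1% and 18.7% of the same windows. Of 12 motifs searched on both strands, the 9 other than AP-1, Klf and Ets differed less between the wound and unwounded windows than Klf and Ets did. The letters GGAATG for Tead factors were in 13.2% of the wound windows, 15.4% of the unwounded windows and 13.6% of all windows. In the same order, TGTGGT for Runx factors was in 12.5%, 13.5% and 15.0%, AGATAA for Gata factors in 6.36%, 9.09% and 9.65%, and ACAAAG for Sox factors in 14.6%, 13.1% and 16.8%. TTCNNNGAA for Stat factors was in 5.68%, 5.86% and 7.69%, TTGCNNAA for Cebp factors in 7.99%, 7.07% and 10.2%, and the NF-kB motif in 28.9%, 30.1% and 23.0%. Longer motifs of p63 and of Nfi factors were in at most 1 window of either class. Base composition moved with the classes: the median G and C content was 62.3% in wound windows, 59.7% in unwounded windows, 62.0% in shared windows and 56.3% over all, and its part in the motif shares was not tested.

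MicroRNA genes gave another view of the classes. Of 1005 hairpins in the RefSeq table, 223 lay within 2 kb of a region. The nearest region was of the wound list alone for 66 (29.6%), of the unwounded list alone for 26 (11.7%) and shared for 131 (58.7%). Over all regions the wound list alone held 32.6% and the unwounded list alone 18.4%, so the hairpins showed no excess of either class. Hairpins of a cluster can share 1 region and were each counted. The mature sequences below, chosen after values were seen for their known roles in skin and wounds, are 5′ to 3′ with the seed, bases 2 to 8, in capitals. The first 4 have their hairpin nearest to a region of the wound list alone, and the last pair to a region of the unwounded list alone.
miR-132-3p: uAACAGUCuacagccauggucg
miR-212-3p: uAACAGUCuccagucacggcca
miR-29a-3p: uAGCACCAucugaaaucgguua
miR-29b-3p: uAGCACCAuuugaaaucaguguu
miR-203-3p: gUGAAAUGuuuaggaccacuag
miR-205-5p: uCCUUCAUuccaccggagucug
miR-132-3p and miR-212-3p have the same seed, as have miR-29a-3p and miR-29b-3p. The hairpins of Mir132 and Mir212 lie inside a single region on chromosome 11 (75172548 to 75173947), with a fold enrichment of 4.92 and a score at the 11.5 percentile of the wound list, and no other list held it. Mir29a and Mir29b-1 lie 352 and 715 bp from a single region on chromosome 6 (31061698 to 31062308, fold enrichment 5.79, 52.1 percentile), which again no other list held. Mir203, a microRNA of differentiating keratinocytes, lies 1066 bp from a region on chromosome 12 (112129170 to 112129814, fold enrichment 3.80, 18.7 percentile of the unwounded list). Mir205, abundant in basal keratinocytes, lies 754 bp from a region on chromosome 1 (193508284 to 193508601, fold enrichment 3.29, 37.4 percentile). Outside the pair, the Mir205 region was only in the partial-thickness list of day 80, and so not in the unwounded list of that day. The Mir203 region was in the unwounded, partial-thickness and full-thickness lists of day 80 and in the hair follicle stem cell list.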

How the data were processed

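Each group of the ATAC-seq series came as 1 deposited peak list. The tools Bowtie, Picard, MACS2 2.1.1.20160309, bedtools 2.29.2 and the mm10 build are named per the submitters' processing notes, with no roles. Read depth is unknown, and no source used here says whether peaks were called on pooled reads. The authors' score equals 10 times −log10 q in nearly all deposited peaks. The deposited fold enrichment is a ratio over local background, and the deposited −log10 p and −log10 q belong to a peak within its list. The authors kept part of the numbered calls, 37.7% in the wound list and 65.1% in the unwounded day 0 list. Lists were matched to groups by their deposited names.

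Peaks of the pair were merged at 1 bp of overlap in Python 3.11.15 with pandas 2.3.3. Each region was given its closest protein-coding gene, at most 50 kb away, in the RefSeq table of GRCm38.p6. The table has no strand or exons, so either gene end within 1 kb stood in for a promoter, and exons, introns and UTRs were not analysed here. Promoter windows and microRNAs come from RefSeq tables with strand. Merging and classes were tested on simulated data and against bedtools 2.31.1. Percentiles are ranks of a peak's score within its list. The 30 gene lists, of which 2 names were not found, and the compared regions were chosen with earlier results of these data known.

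Genes were named by rule: on each side the 10 with the most regions, the 10 with the largest difference and those nearest to the 10 highest scores, up to 6 members of each list, and 19 fixed genes. The text names part of them, and names others as chosen after their values were seen. Alternatives were a cover of 50%, the upper 50% by score, lists of equal length, 250 bp around summits, the day 80 unwounded list, other gene windows and 500 bp in place of 1 kb.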

Additional observations from a re-analysis of the deposited data

How the results depend on the processing

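No paired analysis was possible because each group is 1 list with no values by replicate, and for the same reason no replicate could be left out. The share of regions in both lists, 49.0%, was 42.4% with a required cover of 50%, 44.2% with the upper 50% by score, 46.5% with 250 bp to either side of the summit and 48.4% against the day 80 unwounded list. With the upper 50% by score, 8147 regions were in the wound list alone and 4990 in the unwounded list alone, and the regions near listed genes fell to 483 and 281. The share of wound regions near gene ends was 16.6% with 50% cover, 28.1% with the upper 50%, 13.1% with lists of equal length and 10.2% within 500 bp. For unwounded regions it was 15.7% with the upper 50%, 9.92% with equal length, 11.4% around summits and 7.14% within 500 bp. Of 30 gene lists under 7 alternatives each, 8 turned their difference of wound minus unwounded regions once. With equal length, Stat3 and gp130 went to −7, BMP and TGF-beta to −10, Wnt and hedgehog to −12 and epidermal fate to −4. Against the day 80 list, hair follicle stem cell and Merkel and nerve went to 1 each, and with the upper 50% fibroblast went to 1 and melanocyte to −2. Among 102 named genes 7 turned: Krt5 (−1), Rora (−2) and Macrod2 (5) against the day 80 list, Jun (−1), Nfkb1 (−3) and Ghr (1) with the upper 50%, and Fos (−1) with equal length and with a 10 kb window. The cause was not tested. Without read depth, a region absent from a list cannot be called closed.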
